A study of Homo sapiens with 6 samples.

Results

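The genes described here are 10 immediate early genes, listed by name with earlier results of these data known. They are the EGR zinc finger factors EGR1, EGR2 and EGR3 and the orphan nuclear receptors NR4A1, NR4A2 and NR4A3. The others are the small response proteins IER2 and IER3 and the factors KLF6 and MAFF. The rule that took their probe sets used no measured value, but the choice of the genes was not blind to the data. A probe set, the group of array probes summarised into a single value, was taken for a gene when the platform annotation named that gene alone. This gave 32 of the 49293 probe sets, for 9 of the 18132 genes with a probe set. EGR2 had none, so its levels are not analysed here and only its promoter windows are counted. The samples were 6 tumors grown for 4 weeks in nude mice from CRL-5889, an established human line of squamous lung cancer. The 3 fusion tumors came from cells transfected with TRA2B-DNAH5, a join of a splicing factor gene and an axonemal dynein gene, and the 3 vector tumors from cells transfected with the vector. The labels used here do not give what drives the construct, whether the transfected cells were 1 clone and which mouse carried which tumor. The labels call the tumors biological replicates, so limma p-values measure the spread between these tumors, and a difference between the transfected cell populations cannot be told apart from the fusion.

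Immediate early genes are transcribed within minutes of a growth factor, stress or cytokine signal, without new protein synthesis. ERK and p38 kinases phosphorylate the ternary complex factors that sit with serum response factor (SRF) on CArG boxes, and cyclic AMP and calcium signals act through CREB on cyclic AMP response elements (CREs). The EGR proteins bind GC-rich sites and are held back by the corepressors NAB1 and NAB2, the latter itself induced by EGR proteins, while NR4A receptors bind DNA without a known physiological ligand. In tumors these transcripts are known to be short-lived and to follow the momentary state of the tissue.

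The 250 bases before the RefSeq gene start (build GRCh38.p14) were taken for the 7 members with an entry, EGR2 included, in 11 windows. They are shown for 4 genes with unlike sets of elements, whose levels over the tumors also differed. A link between the elements and the levels was not tested. Capitals mark matches, on either strand, to the CArG box, the CRE core TGACG, the full CRE TGACGTCA, which contains a core on each strand, and the EGR site GCGNGGGCG.
EGR1 (chr5:138465229-138465478, plus strand): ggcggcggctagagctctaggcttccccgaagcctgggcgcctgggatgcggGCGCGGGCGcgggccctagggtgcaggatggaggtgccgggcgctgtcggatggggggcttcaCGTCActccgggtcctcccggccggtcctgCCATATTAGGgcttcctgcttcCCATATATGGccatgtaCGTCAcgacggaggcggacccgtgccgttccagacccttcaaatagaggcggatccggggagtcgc
NR4A3 (chr9:99821635-99821884, plus strand): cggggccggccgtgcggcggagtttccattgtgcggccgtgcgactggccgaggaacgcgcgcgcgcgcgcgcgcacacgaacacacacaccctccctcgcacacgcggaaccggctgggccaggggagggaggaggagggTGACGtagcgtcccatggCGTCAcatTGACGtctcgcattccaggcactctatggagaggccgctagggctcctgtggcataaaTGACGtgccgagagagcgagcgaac
MAFF (chr22:38201744-38201993, plus strand): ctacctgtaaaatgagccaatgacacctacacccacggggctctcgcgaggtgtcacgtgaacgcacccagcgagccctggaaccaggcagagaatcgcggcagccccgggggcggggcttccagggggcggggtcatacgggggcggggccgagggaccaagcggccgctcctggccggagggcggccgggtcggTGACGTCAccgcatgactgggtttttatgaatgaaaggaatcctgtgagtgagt
KLF6 (chr10:3785210-3785459, minus strand): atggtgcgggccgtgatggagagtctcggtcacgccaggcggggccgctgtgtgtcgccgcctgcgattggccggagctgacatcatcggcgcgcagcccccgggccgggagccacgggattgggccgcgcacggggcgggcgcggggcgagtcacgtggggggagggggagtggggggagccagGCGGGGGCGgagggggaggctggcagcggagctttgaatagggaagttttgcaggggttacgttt
The EGR1 window held 2 CArG boxes, beginning 105 and 83 bases before the start, 2 CRE cores and 1 EGR site. Of the 11 member windows 2 held a CArG box (that of EGR1 and 1 of EGR2), against 1.16% of 34943 such windows over all genes. A CRE core was present in 5 of the 11, the IER2 window among them, an EGR site in 2 and the full CRE in 1. The NR4A3 window held 4 CRE cores, at 109, 91, 83 and 25 bases before the start, against at least 1 in 21.2% of all windows. The MAFF window, the first of its 2, held the full CRE at 54 bases, found in 1.63% of all windows. The KLF6 window held 1 EGR site at 65 bases, found in 8.39% of all windows, and no CArG box or CRE core. Neither of the 2 NR4A1 windows held any of these elements. No member window held the AP-1 site TGANTCA (6.59% of all windows) or the NR4A site AAAGGTCA, called NBRE (1.04%). These are matches of letters, not measured binding.

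The deposited values are log2 levels, so a difference of 1 is a 2-fold change. Array medians lay between 6.27 and 6.39, and Pearson's r between arrays over all probe sets lay between 0.989 and 0.997. Vector tumor 1 stood apart on the first principal component over all probe sets (with 42.4% of the variance; its score was 55.8, those of the other 5 tumors -14.8 to -2.73), so the members' results are given with and without it. Of the squamous markers, SOX2, a lineage factor of squamous lung cancer, stood at 8.70 to 8.92 in fusion and 9.24 to 10.10 in vector tumors, without overlap. Its log2 difference, fusion minus vector, was -0.83 (limma adjusted p = 0.369), and without vector tumor 1 it was -1.04 and called (limma adjusted p = 0.0440). The part of this shift in the members' levels was not tested. KRT5, KRT14 and PKP1 stood between 4.90 and 5.90, and DSG3 was below the level of 4.94 set as a filter for dim probe sets. TP63, KRT6A and KRT17 are not analysed here. Of 5 epithelial genes, EPCAM and CDH1 were also below that filter level and 3 were past it. KRT18 stood at 8.38 to 8.73, KRT8 at 5.18 to 5.41 and KRT19 at 4.84 to 5.42. TRA2B and DNAH5 had log2 differences, fusion minus vector, of 0.04 and -0.0043 (-0.0086 and -0.25 without vector tumor 1) and were not called; the parts of either gene in the construct are not given in the labels.

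EGR1, the factor best known as a rapid readout of ERK signalling, had the largest SD over the 6 tumors of the 9 members. Its brightest probe set gave log2 levels of 9.08, 9.25 and 9.53 in fusion tumors 1 to 3, and vector tumors 1 to 3 had 10.12, 8.02 and 8.12. The fusion tumors lay close together, between a single high vector tumor and a pair of low ones, so the groups overlapped. The mean was 9.28 ± 0.23 for the fusion group and 8.75 ± 1.18 for the vector group (SD, n = 3 each), a log2 difference of 0.53 (SE 0.49, 95% confidence interval -0.59 to 1.64, limma adjusted p = 0.963, with Benjamini-Hochberg adjustment across the 13694 tested genes). The SD of EGR1 over the 6 tumors, 0.82, was larger than that of 99.8% of tested genes. NR4A3 and NR4A2, with an SD of 0.79 each (99.8%), and NR4A1 with 0.59 (99.4%) ranked nearly as high. Within the vector group EGR1 stood 4.14-fold higher in tumor 1 than in the mean of tumors 2 and 3. With vector tumor 1 left out, EGR1 was called higher in fusion tumors by 2.32-fold (log2 difference 1.21, SE 0.13, limma adjusted p = 0.0207). With any other tumor left out the log2 difference ran from 0.16 to 0.63 and the adjusted p from 0.951 to 1.00. The call for EGR1 thus rested on which vector tumors were counted.

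All 6 EGR1 probe sets were highest in vector tumor 1, by 1.00 to 2.30 log2 units over the mean of the other vector tumors. They fell into 3 with higher levels and 3 with lower ones. The brightest 3 had log2 differences of 0.50 to 0.57 between the groups, and 1.21 to 1.28 without vector tumor 1, when 2 of them were called (limma adjusted p = 0.0312 and 0.0434, over 31666 probe sets, of which 0.0979% were called). The other 3 had differences of -0.12 to 0.08, and of 0.30 to 0.70 without vector tumor 1, and were not called. EGR3, an EGR family factor induced by calcium and growth factor signals, varied little in its brighter probe sets. Its levels were 6.15, 5.87 and 6.11 in fusion tumors and 6.19, 6.01 and 6.17 in vector tumors (log2 difference -0.08, SE 0.11, adjusted p = 0.980; -0.05 without vector tumor 1). Its 3 probe sets past the filter varied by at most 0.40 over the 6 tumors. Its other probe set, a dim one, ranged over 1.04 and was highest in vector tumor 1. EGR4, the remaining family member, is not among the 10 genes and belongs to the list of partners and relatives below; its levels were 7.19, 6.99 and 7.08 in fusion tumors and 8.68, 6.44 and 5.90 in vector tumors. The fusion tumors again lay between vector tumor 1 and the other vector tumors (log2 difference 0.08, adjusted p = 0.995). Leaving out vector tumor 1 gave a difference of 0.92, short of the threshold (limma adjusted p = 0.0847).

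**Figure D1:**
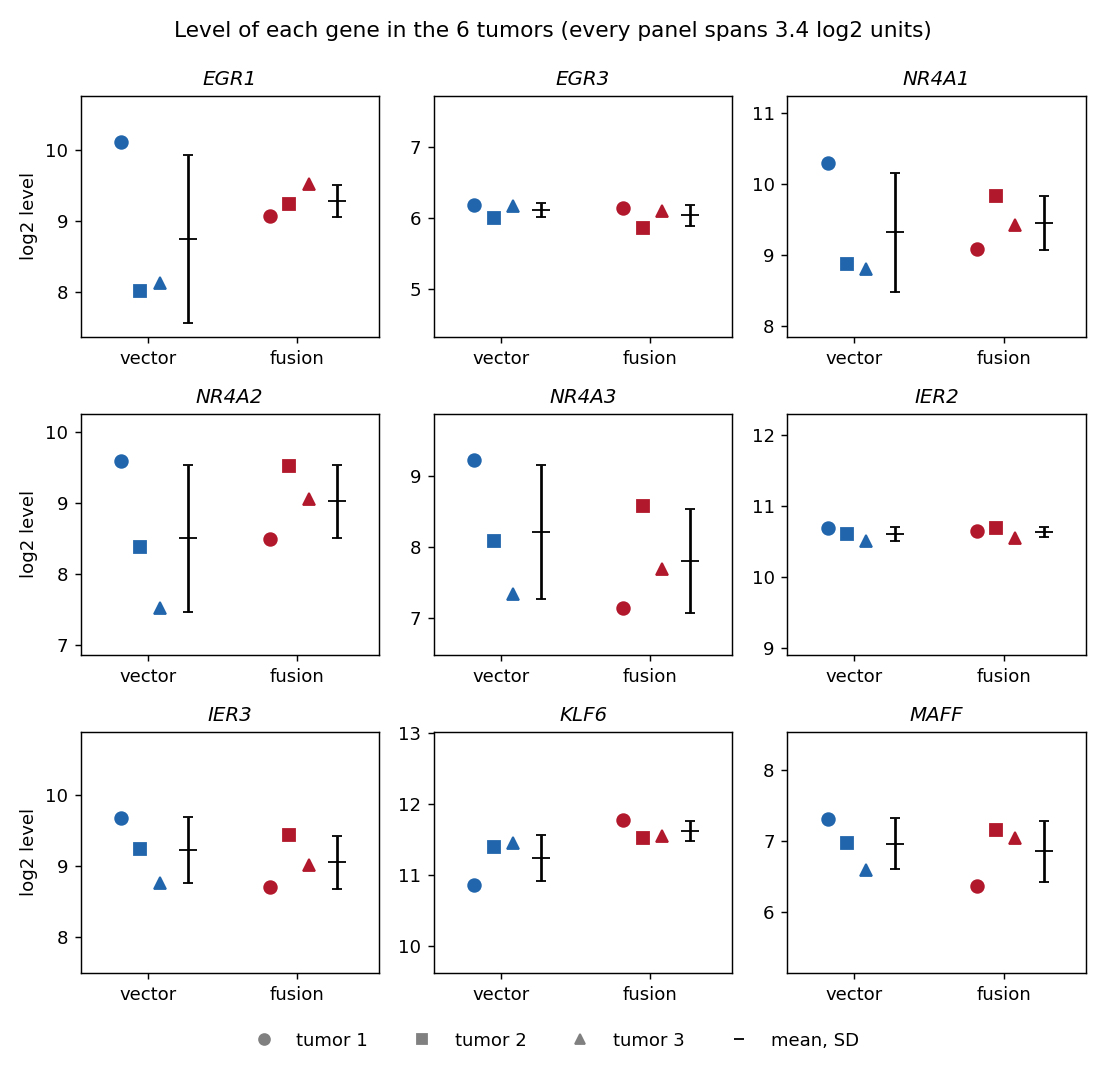
Log2 level (vertical axis) of the brightest probe set of each of the 9 genes in 3 vector and 3 fusion tumors (points, shaped by tumor number), with mean and SD as bars; every panel spans the same number of log2 units. EGR1 in fusion tumors (9.08 to 9.53) sits between vector tumor 1 at 10.12 and the other vector tumors at 8.02 and 8.12, while EGR3 and IER2 are nearly level.

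NR4A1, also known as Nur77, is induced by many of the signals that induce EGR1. It stood at 9.09, 9.84 and 9.42 in the fusion tumors and at 10.29, 8.87 and 8.80 in the vector tumors, in the order of their numbers. The order of groups was that of EGR1, with fusion tumors between the high vector tumor and the low pair. The log2 difference was 0.13 (SE 0.38, adjusted p = 0.987), and without vector tumor 1 it was 0.61 (SE 0.19, adjusted p = 0.346). Of its 7 probe sets, 6 were highest in vector tumor 1 and gave differences of 0.07 to 0.28; the other, dim and below the filter level, hardly varied (range 0.37).

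NR4A2, or Nurr1, a factor also required for dopamine neurons, stood at 8.49, 9.51 and 9.06 in fusion tumors and 9.59, 8.38 and 7.52 in vector tumors. Fusion tumor 2 was here nearly level with vector tumor 1, and vector tumor 3 was the lowest. The log2 difference was 0.52 (SE 0.47, adjusted p = 0.963), and without vector tumor 1 it was 1.07 (SE 0.32, adjusted p = 0.324). Its 3 probe sets had similar differences, of 0.52 to 0.61. Vector tumor 1 was the highest in 1 of the 3, the brightest. In the dimmer ones fusion tumor 2 was the highest, at 9.19 against 9.03 and at 8.99 against 8.71 in vector tumor 1. The difference of the brightest probe set shrank to 0.03 without vector tumor 3.

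NR4A3, or NOR1, leaned the other way. It stood at 7.14, 8.59 and 7.70 in fusion tumors and at 9.22, 8.08 and 7.34 in vector tumors. Fusion tumor 1, in the middle of the range for EGR1, was the lowest of the 6 for NR4A3. The log2 difference was -0.41 (SE 0.48, adjusted p = 0.973); it was -0.85 without vector tumor 3 and turned to 0.10 without vector tumor 1. The 3 probe sets had differences of -0.50 to -0.05, with the dimmest nearly flat (range 0.28). No NR4A gene was called with all 6 tumors or with any single tumor left out.

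IER2, a nuclear protein of the IER family, was the steadiest member. It stood at 10.66, 10.70 and 10.55 in fusion tumors and 10.70, 10.61 and 10.51 in vector tumors (log2 difference 0.03, SE 0.095, 95% confidence interval -0.19 to 0.25, adjusted p = 0.987). Its SD of 0.079 over the 6 tumors exceeded that of 12.3% of tested genes. IER3, a stress-induced regulator of ERK phosphatase PP2A and of survival, stood at 8.70, 9.44 and 9.01 in fusion tumors and 9.68, 9.24 and 8.76 in vector tumors. Vector tumor 1 was the highest and fusion tumor 1 the lowest, and the groups overlapped (log2 difference -0.17, SE 0.25, adjusted p = 0.983). MAFF, a small MAF protein that pairs with CNC factors such as NRF2, stood at 6.37, 7.16 and 7.04 in fusion tumors and 7.32, 6.98 and 6.60 in vector tumors. Its log2 difference was -0.11 (SE 0.24, adjusted p = 0.983). Without vector tumor 1 the difference was 0.08 for IER2 and turned to 0.05 for IER3 and 0.07 for MAFF, all short of the threshold. IER3 and MAFF had the most alike courses of all member pairs: their mean-centred levels differed by 0.13 (root mean square over the 6 tumors), next to 0.15 for EGR3 and IER2, which hardly varied.

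KLF6, a zinc finger factor described as a tumor suppressor, was the 1 member with its lowest level in vector tumor 1. It stood at 11.78, 11.52 and 11.56 in fusion tumors and 10.86, 11.40 and 11.45 in vector tumors. All fusion values were above all vector values, and vector tumor 1 was the highest tumor for the other 8 genes. The mean was 11.62 ± 0.14 for the fusion group and 11.24 ± 0.33 for the vector group (SD, n = 3 each), a log2 difference of 0.38 (SE 0.16, 95% confidence interval 0.0089 to 0.75). It did not pass after adjustment (adjusted p = 0.829, unadjusted p = 0.0458 by limma; exact two-sided permutation p = 0.1, the smallest value the 20 splits allow). Groups that do not overlap were found in 11.7% of all tested genes, 5.94% with fusion higher, and KLF6 was 1 of 9 members. All 5 KLF6 probe sets were lowest in vector tumor 1 and had differences above 0, from 0.21 to 0.61, and in 3 of the 5 the groups did not overlap, against 11.6% of all probe sets tested. These 5 read the same gene in the same tumors, so they are not independent of each other. Without vector tumor 1 the difference was 0.19 (SE 0.10, adjusted p = 0.665), against 0.38 with it.

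**Figure D2:**
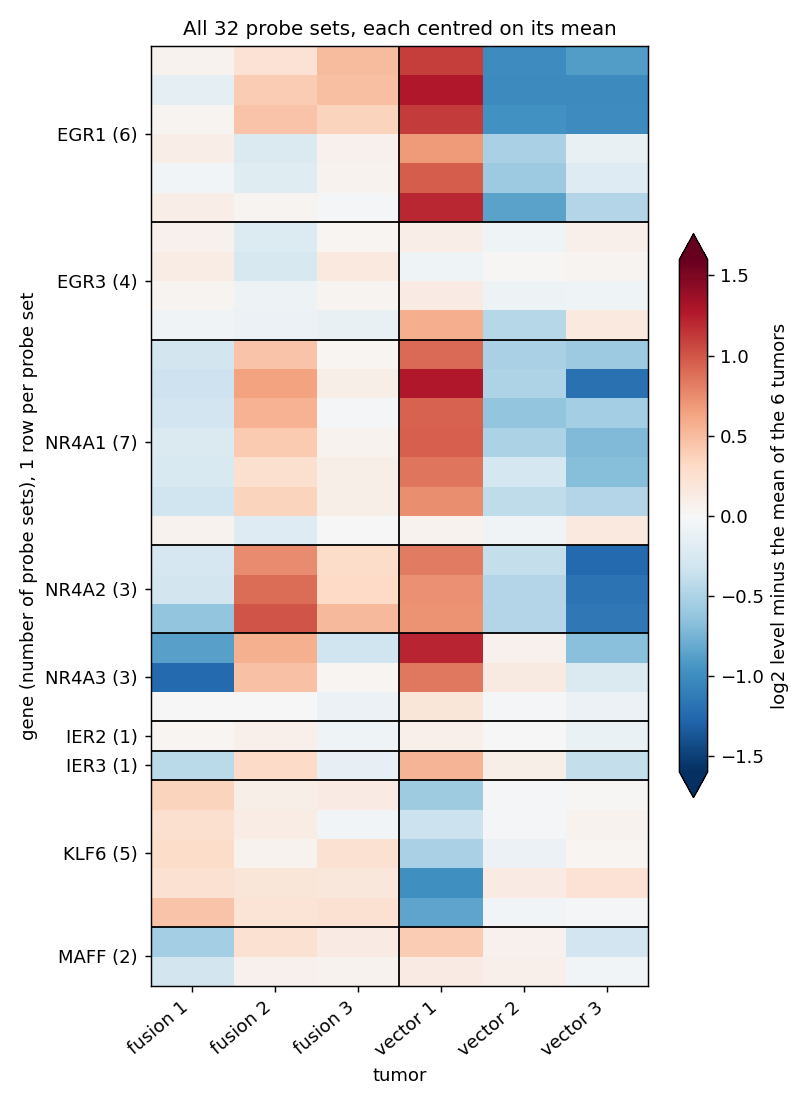
Log2 level of each of the 32 probe sets minus its mean over the 6 tumors (colour), with a row per probe set grouped by gene and a column per tumor. In the vector tumor 1 column 23 rows hold the highest value of the 6 tumors, and the 5 KLF6 rows hold the lowest.

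By limma 0 of the 9 members were called at adjusted p 0.05 with all 6 tumors, and 1 (KLF6) had an unadjusted p below 0.05. Over all tested genes 0.073% were called and 5.89% had an unadjusted p below 0.05. Of the 30 member probe sets past the filter limma called 0, against 0.0158% called over all probe sets tested. An unadjusted p below 0.05 was found for 3 of the 30, all of them probe sets of KLF6. No unadjusted share over all probe sets is given here. The log2 difference was above 0 for 5 members and below 0 for 4, with a median of 0.03, beside 50.8% of all tested genes above 0 and a median of 0.0020. Exact permutation p-values ran from 0.1 to 0.8. Vector tumor 1 was the highest of the 6 tumors in 8 of 9 members (in IER2 level with fusion tumor 2 at 10.70), against 27.2% of all tested genes, and the lowest in 1 of 9, against 28.8%. NR4A2 is counted by its brightest probe set, the 1 of its 3 that was highest in vector tumor 1. Fusion tumor 1 and vector tumor 3 were each the lowest in 3 members. Without vector tumor 1, 1 member (EGR1) was called, against 0.27% of all tested genes (0.161% called higher). An unadjusted p below 0.05 was then found for 3 members (EGR1, NR4A1 and NR4A2), against 9.19% of all genes, and 8 of 9 were above 0, against 49% of all genes. The vector group was then tumors 2 and 3 only. Leaving out the highest tumor of the vector group raises the fusion minus vector difference of a gene. The counts without vector tumor 1 thus follow in part from which tumor was left out.

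**Figure D3:**
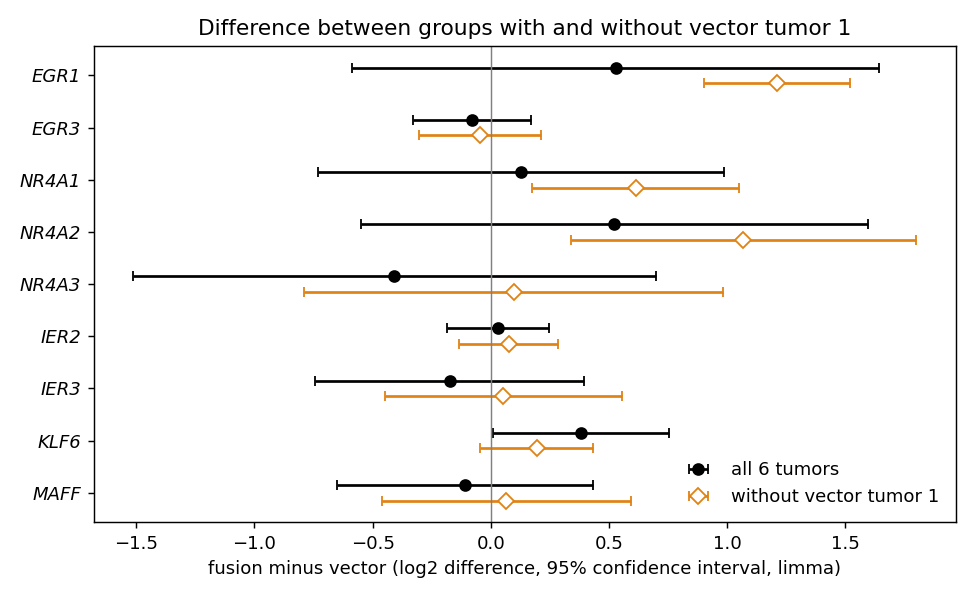
Fusion minus vector log2 difference (horizontal axis) of the 9 genes with the 95% confidence interval from limma, for all 6 tumors (filled circles) and without vector tumor 1 (open diamonds). The EGR1 interval runs from -0.59 to 1.64 with all tumors and from 0.90 to 1.52 without vector tumor 1.

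Of the kinases and factors upstream of these genes, 14 of 16 listed were measured and tested. Limma called 0, with 1 at an unadjusted p below 0.05, against 5.89% of all tested genes. Of the 14, 10 were above 0 and 4 below, with a median log2 difference of 0.05, beside 50.8% of all tested genes above 0. ELK3, a ternary complex factor, stood at 11.60 to 11.62 in fusion and 11.24 to 11.45 in vector tumors (log2 difference 0.25, SE 0.092, adjusted p = 0.733). ELK1 was at 0.09, the kinase RPS6KA3 (RSK2) at 0.12 and the CREB coactivator CRTC3 at -0.15 (-0.05 without vector tumor 1). Of these 14 genes, vector tumor 1 was the highest in 5 and the lowest in 4, against 27.2% and 28.8% of all tested genes. Without it 9 were above 0 (median 0.11), against 49% of all tested genes.

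Among partners and relatives, 14 of 15 were tested, limma called 0, and 1 had an unadjusted p below 0.05, against 5.89% of all tested genes. They split evenly, 7 above 0 and 7 below, with a median of -0.01, beside 50.8% of all tested genes above 0. Both EGR corepressors had groups that did not overlap: NAB1 had a log2 difference of 0.29 (SE 0.099, adjusted p = 0.683) and NAB2 one of 0.15 (SE 0.090, adjusted p = 0.956). RXRB, a partner of nuclear receptors, was at -0.13, also without overlap, and IER5, a relative of IER2, at -0.30 with overlap (-0.13 without vector tumor 1). In all, 3 of the 14 did not overlap, beside the 11.7% over all genes. Without vector tumor 1, 8 were above 0 (median 0.04), against 49% of all tested genes.

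Of 30 other immediate early genes, 28 were measured and 26 were past the filter. Limma called 0 of them, with 2 at an unadjusted p below 0.05, against 5.89% of all tested genes. Of the 26, 17 were above 0 and 9 below (median 0.04), beside 50.8% of all tested genes above 0. JUN, the AP-1 subunit, stood at 9.25, 9.62 and 9.72 in fusion tumors and 8.69, 8.76 and 8.65 in vector tumors. Unlike EGR1 it was level across the vector tumors, and its groups did not overlap (log2 difference 0.83, adjusted p = 0.120). Groups did not overlap in 4 of the 26, against 11.7% of all tested genes. MCL1, a survival factor of the BCL2 family, was at 0.30 (adjusted p = 0.526), the AP-1 subunit FOSL1 at 0.27 and the pseudokinase TRIB1 at 0.25 (0.15 without vector tumor 1). CCN1, a matricellular protein, was singled out after its values were seen: it stood at 7.16, 8.25 and 8.04 in fusion tumors and 9.23, 7.43 and 6.67 in vector tumors (log2 difference 0.04, and 0.77 without vector tumor 1). Vector tumor 1 was the highest in 11 of the 26 and the lowest in 5, against 27.2% and 28.8% of all tested genes. The median of vector tumor 1 minus the mean of the other vector tumors was 0.25, beside 0.68 for the 9 members and 0.0010 for all tested genes. Without vector tumor 1, 22 of the 26 were above 0 (median 0.15), against 49% of all tested genes. Limma then called 0, with 6 at an unadjusted p below 0.05, against 9.19% of all tested genes. As for the members, leaving out a tumor that is high within its group raises these differences. Of reported EGR1 targets, 6 of 10 were tested and limma called 0, also 0 at an unadjusted p below 0.05, with 2 above 0 and 4 below (median -0.08). Without vector tumor 1, 3 of the 6 were above 0 and limma again called 0. An unadjusted p below 0.05 was then found for 3 of the 6, against 9.19% of all tested genes. Of these, CDKN1A and ICAM1 were higher in fusion tumors and the growth factor VEGFA was lower (-0.32). The cell cycle inhibitor CDKN1A was at 0.49 (0.78 without vector tumor 1), the adhesion molecule ICAM1 at 0.20, and the growth factors PDGFA and PDGFB were at -0.18 and -0.19 (-0.13 and -0.09 without vector tumor 1).

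By root mean square difference of mean-centred log2 levels over the 6 tumors, the tested genes outside the members most like EGR1 were BCL2A1, a BCL2 family survival gene (0.12), NNMT, nicotinamide N-methyltransferase (0.36), and EGR4 (0.37). BCL2A1 stood at 5.76, 6.22 and 6.13 in fusion tumors and 6.90, 4.72 and 4.79 in vector tumors, high in vector tumor 1, intermediate in the fusion tumors and low in the other vector tumors, as for EGR1. Those most like NR4A2 were the growth factor HBEGF (0.18), the chemokine CCL5 (0.21) and COXFA4L3 (0.25). Those most like NR4A3 were ACTA1, skeletal muscle actin (0.27), CSRP2, a LIM protein (0.28), and the chemokine CCL2 (0.28). Likeness over 6 tumors is a description and was not tested.

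**Figure D4:**
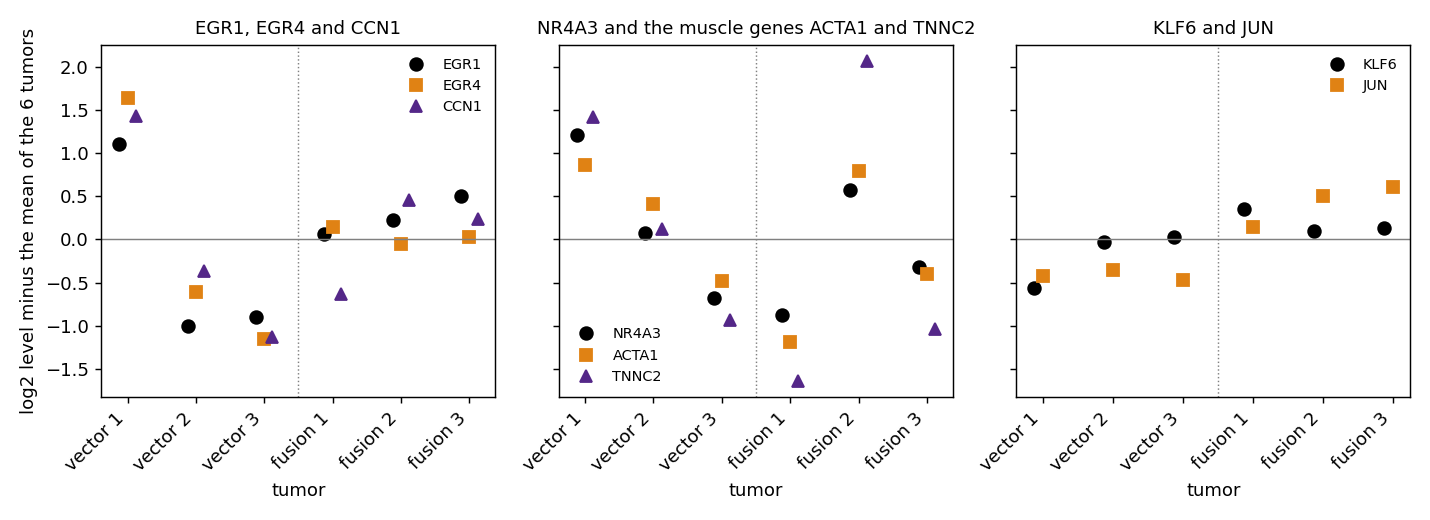
Log2 level minus the mean of the 6 tumors (vertical axis) in each vector and fusion tumor (horizontal axis) for EGR1, EGR4 and CCN1 (left), NR4A3 with the muscle genes ACTA1 and TNNC2 (middle) and KLF6 with JUN (right). CCN1 was chosen for the plot after its values were seen. EGR4 and ACTA1 are among the genes found most like EGR1 and NR4A3 in profile, so their likeness here follows from that choice. In the middle panel vector tumor 1 and fusion tumor 2 are the highest for each gene and fusion tumor 1 the lowest. Not plotted are the muscle markers TNNT3, which shared this order, and CKM and MB, which did not.

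Markers of other cell types were read beside these genes. Of 8 skeletal muscle markers, 7 were measured and 5 were past the filter, with a mean log2 level of 5.98, 7.33 and 6.29 in fusion tumors and 7.38, 6.66 and 6.28 in vector tumors. In this mean fusion tumor 2 and vector tumor 1 were the highest and fusion tumor 1 the lowest, as for NR4A3. ACTA1, TNNC2 and TNNT3 followed that order, whereas CKM was lowest in vector tumor 3, and MB, myoglobin, was at 5.61 in fusion tumor 2, below its 5.69 in fusion tumor 1. TNNC2, fast troponin C, ran from 5.60 in fusion tumor 1 to 9.31 in fusion tumor 2, while MYH1 was below the filter level. The part of muscle RNA in the NR4A3 result was not tested. Of 8 leukocyte markers 4 were past the filter, with means of 6.75 to 6.88 in fusion and 6.49 to 6.63 in vector tumors. The members of that list differed in direction: CD68, a lysosomal protein of macrophages, was at a log2 difference of 0.80 (adjusted p = 0.112), CSF1R at 0.17, LAPTM5 at 0.06 and TYROBP at -0.13. The defining markers PTPRC, CD14, LYZ and CD163 were below the filter level in the mean. Endothelial markers (6 of 8 past the filter) had means of 6.40 to 6.44 in fusion and 6.32 to 6.47 in vector tumors, fibroblast markers (6 of 8) 7.17 to 7.32 and 6.77 to 6.98, and adipocyte markers (4 of 6) 6.17 to 6.24 in vector tumors and less in fusion tumors, down to 5.88. All 6 tested fibroblast markers were above 0 (median 0.30), with and without vector tumor 1. Limma called 0 of them, 4 had an unadjusted p below 0.05, and 4 had groups that did not overlap, among them the protease FAP (0.91) and the collagen COL1A1 (0.65). The listed fibroblast markers DCN and LUM were below the filter level. All 4 tested adipocyte markers were below 0 (median -0.30), 3 of them at an unadjusted p below 0.05. Over all tested genes 5.89% had such a p by limma, and 11.7% had groups that did not overlap. The part of these marker shifts in the levels of KLF6 and JUN, which also did not overlap, was not tested. In bulk tumors fewer cells of a type and less RNA per cell cannot be told apart, and transcripts from the mouse host were not separated from human ones.

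Heat shock genes, another class of rapidly induced transcripts, had a mean log2 level of 10.73 in vector tumor 1, below 10.80 and 10.79 in the other vector tumors, and of 10.60 to 10.70 in fusion tumors. Of 11 listed, 10 were tested, limma called 0, and 9 of the 10 were below 0 (median -0.15). An unadjusted p below 0.05 was found for 3, against 5.89% of all tested genes: HSPA1B and DNAJB1, below 0, and BAG3, above 0. With vector tumor 1 left out limma also called 0, and 2 were above 0 (median -0.16). DNAJB1, an HSP40 cochaperone, was at -0.38 (adjusted p = 0.780; -0.25 without vector tumor 1) and HSPA1B, an inducible HSP70, at -0.38 (adjusted p = 0.725; -0.54 without vector tumor 1), with its near-identical copy HSPA1A not analysed here, so the assignment of HSPA1B is uncertain. HSPH1 was at -0.24, and the cochaperone BAG3, at 0.35 (adjusted p = 0.523), was the 1 gene above 0 with all tumors. Vector tumor 1 was the highest of the 6 tumors in 2 of these 10 genes, DNAJB1 and HSPE1. DNAJB1 stood at 10.19 there, against 9.85 and 9.76 in the other vector tumors.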

How the data were processed

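RNA from 6 xenograft tumors was extracted with Trizol, biotin-labelled and hybridised to Affymetrix arrays, per the labels. The authors deposited log2 probe set levels, taken as log2 from their range; its background correction, normalization and summarisation are not stated in the labels or the table. No detection calls were used, so for dim probe sets the background is unknown, and the number of arrays limits the precision.

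Gene names came from the platform annotation. Of 49293 probe sets, 44988 named 1 gene, 1832 several, and 2473 were unnamed here. Each gene was read from its probe set with the highest mean. Genes below the 30th percentile of probe set means (4.94) were left out, leaving 13694. Probe set names ending in s or x mark probes shared with, or similar to, other transcripts; those read for EGR1, NR4A3, IER2 and IER3 end in s, and those for NR4A1 and MAFF in x. The comparison used limma 3.58.1 (lmFit, eBayes, two-sided; R 4.3.3), adjusted over all genes or probe sets tested; the fit was tested on simulated data. Named were all members, up to 4 genes per list with the smallest p, and for the 3 most variable members the 3 genes most alike in profile. A few further genes were named for their values, among them CCN1, VEGFA and MB. The members and lists were chosen with earlier results of these data known. The input was read with data.table (version 1.17.8), and motifs and figures were made with Python 3.11.15 and matplotlib 3.10.9.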

Additional observations from a re-analysis of the deposited data

How the results depend on the processing

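Over all genes limma called 10; it called 1 with the filter at the 50th percentile, 16 with the mean of a gene's probe sets, 6 with its most variable probe set and 140 with array weights, where vector tumor 1 had the lowest weight (0.23). Leaving out each tumor gave 0 to 37 calls over all genes, 0 to 1 among the 9 members and 0 to 2 among their 30 probe sets past the filter, the highest count each time without vector tumor 1. Median centring, quantile normalization, no filter, robust fitting with a variance trend and a threshold of 0.10 kept the count over all genes between 9 and 13, and no setting with all 6 tumors called a member. EGR1 came closest with array weights (log2 difference 1.21, adjusted p = 0.0548). MAFF turned from -0.11 to 0.088 with array weights. With each tumor left out in turn, 6 members changed sign: EGR3 ran from -0.14 to 0.0068, NR4A1 from -0.13 to 0.61, NR4A3 from -0.85 to 0.10, IER2 from -0.018 to 0.076, IER3 from -0.41 to 0.054 and MAFF from -0.29 to 0.13. EGR1 (0.16 to 1.21), NR4A2 (0.03 to 1.07) and KLF6 (0.19 to 0.49) stayed above 0. The causes were not tested. EGR3 could not be fitted at the 50th percentile filter or with its most variable probe set, which is dim.

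With the replicate number as a block limma called 8 genes and 0 members. Deviations of same-numbered tumors from their group means correlated at 0.097, 0.17 and 0.051 over genes. Those of differently numbered tumors correlated at -0.14 to -0.018, below every same-numbered value. The labels do not state that the numbers pair tumors, so the main fit did not pair them. Whether same-numbered tumors shared a condition was not tested.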

Other observations

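GEM, a small GTPase gene of the immediate early list, was below the filter and so not tested. It stood at 4.48, 4.97 and 4.70 in fusion tumors and 5.72, 4.89 and 4.17 in vector tumors. THBS1, the matrix protein thrombospondin and a reported EGR1 target, was also below it, at 4.55 to 4.67 in fusion tumors and at 5.03, 4.61 and 4.58 in vector tumors. In both genes the highest tumor was vector tumor 1. NPAS4, a calcium-induced factor of neurons, was dim in all 6 tumors (4.18 to 4.55), as was F3, the coagulation tissue factor, at 4.19 to 4.32 in fusion and 3.99 to 4.65 in vector tumors. These are all genes of both lists that were measured but not past the filter.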
